A study of Caenorhabditis elegans with 4 samples.

Results

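The *mir-35* family consists of the 8 hairpins cel-mir-35, cel-mir-36, cel-mir-37, cel-mir-38, cel-mir-39, cel-mir-40, cel-mir-41 and cel-mir-42, written without the species prefix below, which were taken by name from the 250 hairpins counted in each library. Every hairpin gives a 5p and a 3p mature strand, so the family has 16 of the 434 mature names. Small RNA was sequenced from pools of whole day 0 adults of 4 strains, each strain giving a single library. The *glp-1(e2144)* mutant, strain CF1903, has a temperature-sensitive allele of a *Notch* receptor gene and lacks a germline when raised at 25 °C, and its reference was WT (N2 Bristol) raised at 25 °C. ALG-1/OE, strain CT20, carries the integrated array zaIs5, in which the *alg-1* promoter drives GFP::ALG-1, together with the marker *rol-6(su1006)*, and was raised at 20 °C. Its reference, ctrl (strain PE255), carries feIs5 on chromosome X, in which the *sur-5* promoter drives luciferase::GFP, with the same *rol-6(su1006)* marker, and was also raised at 20 °C. Both 20 °C strains therefore hold a transgene and a roller marker that WT and *glp-1(e2144)* lack. All worms were fed OP50-1 bacteria, and 6 µg of total RNA per strain entered the enrichment for small RNA. The counts cover miRNAs only, so the overexpression of ALG-1 and the absence of germ cells were not checked in them.

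There were no replicates, so no difference below has a replicate check and no test of a condition was possible. Intervals are 95% Clopper-Pearson intervals of the reads. They cover counting error only, and reads of amplified libraries are not independent molecules. Reads on mature miRNAs numbered 536907 in *glp-1(e2144)* mutants, 211140 in WT worms, 238172 in ALG-1/OE worms and 175048 in ctrl worms. Levels are given in RPM, the reads scaled to 1000000 mature miRNA reads, and a log2 ratio compares these shares between 2 libraries. A value above 1 or below -1, a 2-fold difference, was taken as past the cut-off. A read is worth 1.86 RPM in *glp-1(e2144)* mutants, 4.74 RPM in WT worms, 4.20 RPM in ALG-1/OE worms and 5.71 RPM in ctrl worms. A count of 0 was taken to allow at most the level of 3 reads. This level is 5.59 RPM in *glp-1(e2144)* mutants, 14.2 RPM in WT worms, 12.6 RPM in ALG-1/OE worms and 17.1 RPM in ctrl worms. It is a set floor, below the upper end of the 95% interval of such a count, 6.87 RPM in *glp-1(e2144)* mutants. Of the somatic miRNAs used as tissue markers, the glial miR-228-5p had 9784 to 30304 reads per library and the intestinal miR-60-3p had 445 to 2002. The neuronal lsy-6-3p had 7 to 23 reads, the muscle miRNA miR-1-3p at most 5 and lin-4-5p 1 to 12, while the neuronal miR-124-3p had 0 in every library. Summed over the 6 markers, the level was 60223 RPM in *glp-1(e2144)* mutants against 49204 RPM in WT worms, and 68862 RPM in ALG-1/OE worms against 65296 RPM in ctrl worms. This sum is mostly miR-228-5p, with 30304 of 32334 reads in *glp-1(e2144)* mutants and 9784 of 10389 in WT worms. The part of this level in the results was not tested.

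miRNAs are cut from a hairpin by Drosha and Dicer, and the strand that an Argonaute protein keeps as guide finds its targets mainly through bases near its 5′ end, the seed. In the *mir-35* family the 3p strand is the known guide, and all members share their seed. The family is made in the germline and the early embryo of *C. elegans*, and worms that lack all of it die as embryos or young larvae. Known targets in worms include the cell-death activator *egl-1* and the RNA-binding protein genes *sup-26* and *nhl-2*, which link the family to apoptosis, sex determination and the timing of development. The libraries were made from whole adults and not from isolated embryos, so the embryonic role itself was not examined. Whether the adults held embryos was not checked.

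The hairpins lie in 2 places on the plus strand of chromosome II. mir-35 to mir-41 form a cluster of 797 bases, from 11537608 at the start of mir-35 to 11538404 at the end of mir-41, inside an intron of the protein-coding gene *Y62F5A.9*, which runs on the opposite strand. Exons of noncoding RNAs on the plus strand overlap mir-35 (*Y62F5A.16*), mir-36 and mir-37 (*Y62F5A.14*) and mir-39 (*Y62F5A.15*). The gaps between neighbouring hairpins of the cluster are 2 to 61 bases, the longest of them between mir-38 and mir-39. mir-42 lies 351406 bases further on, from 11889811 to 11889905, and is followed by mir-43 and mir-44, which belong to other miRNA families, the 3 hairpins together spanning 308 bases. It overlaps the noncoding RNA *ZK930.12* on the opposite strand. Coordinates are those of the deposited counts. The study names the ce10 genome, and the positions of all 8 hairpins equal those of the WBcel235 annotation. A read stands for a whole mature strand, which is 22 bases long for each 3p strand and 22 to 25 bases for the 5p strands, so reads were not divided by length.

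The family took 406 reads in *glp-1(e2144)* mutants, or 0.0756% (0.0684% to 0.0833%) of the mature miRNA reads, against 23954 reads, or 11.3% (11.2% to 11.5%), in WT worms. It took 20911 reads in ALG-1/OE worms, or 8.78% (8.67% to 8.89%), against 11404 reads, or 6.51% (6.40% to 6.63%), in ctrl worms. The *glp-1(e2144)* library had the most miRNA reads and the fewest family reads of the 4. Among the 3 libraries of strains with a germline, the share was highest in WT worms and lowest in ctrl worms, with ALG-1/OE between them. RNA came from whole worms, so fewer cells that make these miRNAs and less of them per cell cannot be told apart. Reads were found for 11 of the 16 strands in *glp-1(e2144)* mutants, for 16 in WT worms, and for 15 each in ALG-1/OE worms and ctrl.

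**Figure D1:**
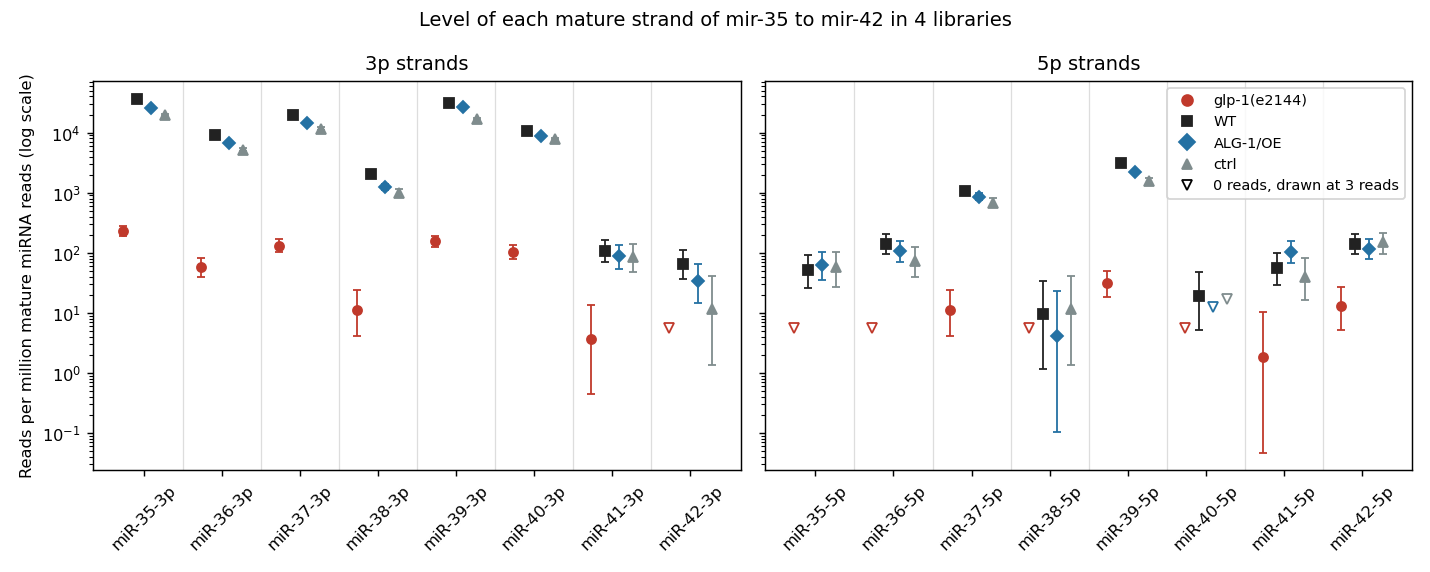
Level in RPM (log axis) of the 3p strands (left) and the 5p strands (right) of mir-35 to mir-42, with 1 point per library and 95% counting intervals as bars. Open triangles stand for 0 reads and are drawn at 3 reads, the floor set for such a count. For every 3p strand with reads in all 4 libraries, *glp-1(e2144)* lies below the other libraries, and miR-41-3p and miR-42-3p lie below the 3p strands of mir-35 to mir-40 in each library.

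The most abundant members were miR-35-3p and miR-39-3p, from either side of the 61-base gap in the cluster. miR-35-3p had 125 reads in *glp-1(e2144)* mutants against 7580 in WT worms, and 6111 in ALG-1/OE worms against 3486 in ctrl worms. Its level was 232.8 RPM in *glp-1(e2144)* mutants against 35900.4 RPM in WT worms, and 25658 RPM in ALG-1/OE worms against 19915 RPM in ctrl worms. Among all mature miRNAs it ranked 73 in *glp-1(e2144)* mutants against 9 in WT worms, and 12 in both ALG-1/OE and ctrl. miR-39-3p had 84 reads in *glp-1(e2144)* mutants against 6611 in WT worms, and 6472 in ALG-1/OE worms against 2939 in ctrl worms. Its level was 156.5 RPM in *glp-1(e2144)* mutants against 31311 RPM in WT worms, and 27174 RPM in ALG-1/OE worms against 16790 RPM in ctrl worms. Its rank was 83 in *glp-1(e2144)* mutants against 10 in WT worms, and 10 in ALG-1/OE worms against 17 in ctrl worms.

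miR-37-3p came next in each library, with 71 reads in *glp-1(e2144)* mutants against 4151 in WT worms, and 3500 in ALG-1/OE worms against 2052 in ctrl worms. miR-40-3p followed it, with 56 reads in *glp-1(e2144)* mutants against 2261 in WT worms, and 2057 in ALG-1/OE worms against 1373 in ctrl worms. After it came miR-36-3p, with 31 reads in *glp-1(e2144)* mutants against 1896 in WT worms, and 1613 in ALG-1/OE worms against 910 in ctrl worms. These 5 strands made up between 97.9% and 98.4% of the 3p reads of the family in each of the 4 libraries.

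The other 3 members were rare. miR-38-3p had 6 reads in *glp-1(e2144)* mutants against 427 in WT worms, and 300 in ALG-1/OE worms against 174 in ctrl worms. miR-41-3p, from the last hairpin of the cluster, had 2 reads in *glp-1(e2144)* mutants against 23 in WT worms, and 21 in ALG-1/OE worms against 15 in ctrl worms. miR-42-3p had 0 reads in *glp-1(e2144)* mutants against 14 in WT worms, and 8 in ALG-1/OE worms against 2 in ctrl worms. Strands of the same cluster thus differed from 23 reads for miR-41-3p to 7580 for miR-35-3p in WT worms. Spearman's rho between position and reads of the 7 clustered 3p strands was -0.54 in *glp-1(e2144)* mutants, -0.54 in WT worms, -0.39 in ALG-1/OE worms and -0.54 in ctrl worms, as a description of 7 hairpins read from the same libraries.

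The order of the 3p strands was miR-35, miR-39, miR-37, miR-40, miR-36, miR-38, miR-41 and miR-42 in *glp-1(e2144)* mutants, WT and ctrl. In ALG-1/OE, miR-39-3p and miR-35-3p changed places, with miR-39-3p 1.06 times as high (1.02 to 1.10), and the order was otherwise the same. In WT the neighbours in this order differed beyond counting error except miR-41-3p and miR-42-3p, with a ratio of 1.64 (0.810 to 3.45). In ALG-1/OE and ctrl every neighbouring pair did. In *glp-1(e2144)*, with few reads, 4 neighbouring pairs were not separated, among them miR-39-3p and miR-37-3p, with a ratio of 1.18 (0.852 to 1.65), and miR-37-3p and miR-40-3p, with a ratio of 1.27 (0.881 to 1.83).

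Summed over its strands, the family was 150-fold lower in *glp-1(e2144)* mutants than in WT worms (136-fold to 166-fold), a log2 ratio of -7.23 (-7.37 to -7.09). All 11 strands with reads in both libraries lay below the lower cut-off, with the whole interval below it for all 11. Of the 199 mature miRNAs with reads in both libraries, 27.1% lay below it and 9.55% above the upper cut-off. The median log2 ratio was -6.68 over the 11 strands and -0.01 over all 199. With 4 strands that had 0 reads in *glp-1(e2144)* mutants set to the floor of 3 reads, the median over 15 strands was -6.61. The members hold 8 of the 10 lowest log2 ratios of this comparison, with miR-250-3p and miR-4813-5p as the other two.

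**Figure D2:**
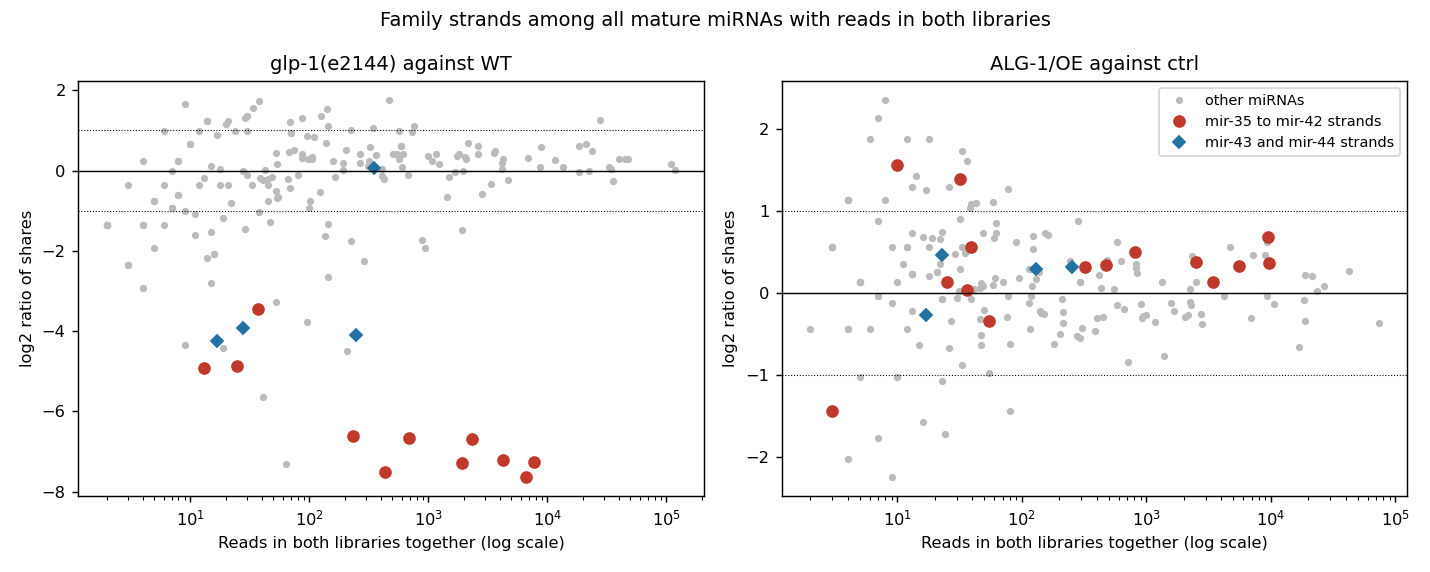
log2 ratio of the shares of every mature miRNA with reads in both libraries, against its reads in both libraries together (log axis), for *glp-1(e2144)* against WT (left) and ALG-1/OE against ctrl (right). Dotted lines mark the 2-fold cut-off. The strands of mir-35 to mir-42 lie between -7.64 and -3.45 on the left, and those with over 100 reads lie between 0.14 and 0.69 on the right, as scaled by mature miRNA reads.

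The 3p guide strands of the first 6 hairpins differed from WT by similar amounts. The log2 ratio was -7.27 (-7.54 to -7.01) for miR-35-3p, -7.28 (-7.84 to -6.77) for miR-36-3p and -7.22 (-7.58 to -6.88) for miR-37-3p. It was -7.50 (-8.95 to -6.37) for miR-38-3p, -7.64 (-7.97 to -7.33) for miR-39-3p and -6.68 (-7.09 to -6.30) for miR-40-3p. The intervals of miR-39-3p and miR-40-3p do not overlap, and the other 4 intervals overlap each other and that of miR-39-3p. miR-41-3p, with 2 reads against 23, had a log2 ratio of -4.87 (-8.00 to -2.85), which overlaps the values of its neighbours.

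The less abundant 5p strands were also lower in *glp-1(e2144)* mutants. miR-39-5p had 17 reads in *glp-1(e2144)* mutants against 672 in WT worms, a log2 ratio of -6.65 (-7.44 to -5.96). miR-37-5p had 6 reads in *glp-1(e2144)* mutants against 230 in WT worms, a log2 ratio of -6.61 (-8.07 to -5.46). miR-41-5p had 1 read against 12, a log2 ratio of -4.93 (-10.35 to -2.17). Both strands of these hairpins thus lay below the cut-off, so the difference was not limited to the guide strand.

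For 4 other strands no read was found in *glp-1(e2144)* mutants, and the fold was computed with 3 reads as the floor of that library. The WT count was taken as exact, so counting error in WT worms is left out. Computed so, miR-36-5p, with 30 reads in WT worms, was 25.4-fold lower in *glp-1(e2144)* mutants. miR-42-3p, with 14 reads in WT worms, was 11.9-fold lower. miR-35-5p, with 11 reads in WT worms, was 9.32-fold lower, and miR-40-5p, with 4, was 3.39-fold lower. For miR-40-5p the level intervals overlap, with 5.16 to 48.5 RPM in WT worms and 0 to 6.87 RPM in *glp-1(e2144)* mutants. miR-38-5p had 0 reads in *glp-1(e2144)* mutants against 2 in WT worms, and its difference was not detectable at this depth.

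**Figure D3:**
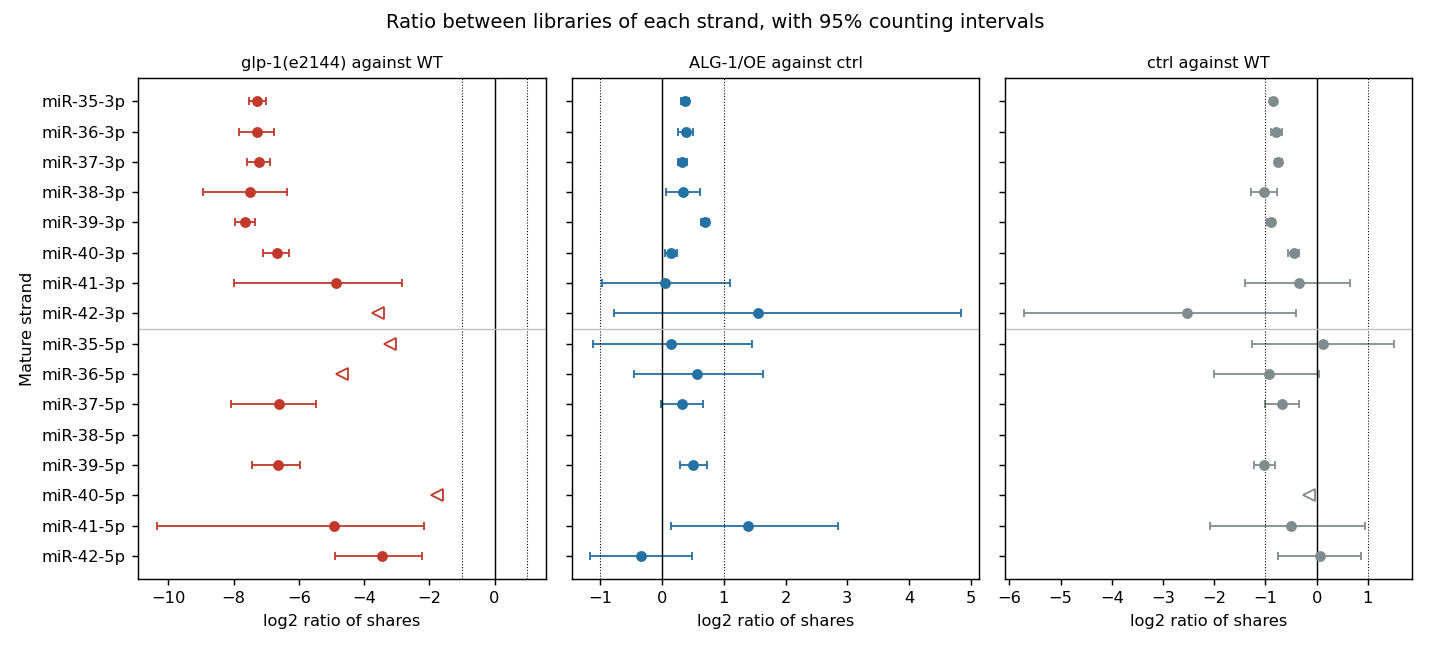
log2 ratio of the shares of each strand of mir-35 to mir-42 for *glp-1(e2144)* against WT (left), ALG-1/OE against ctrl (middle) and ctrl against WT (right), each on its own x axis, with 95% counting intervals as bars. Open triangles are strands with 0 reads in 1 library, drawn with 3 reads in place of 0. Strands with at most 3 reads in both libraries are left out. Every value on the left lies below the lower dotted line at -1, while most values in the other panels lie between the dotted lines.

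mir-42, which lies outside the cluster, differed less from WT in *glp-1(e2144)* mutants than the clustered members did as a sum. For miR-42-5p there were 7 reads in *glp-1(e2144)* mutants against 30 in WT worms, a log2 ratio of -3.45 (-4.88 to -2.23). With both strands summed, mir-42 had 7 reads against 44, a log2 ratio of -4.00 (-5.39 to -2.84), while mir-35 to mir-41 had 399 reads against 23910, a log2 ratio of -7.25 (-7.40 to -7.11). mir-42 thus gave 1.72% of the family's reads in *glp-1(e2144)* mutants against 0.184% in WT worms, an odds ratio of 9.53 (exact conditional interval 3.60 to 21.5), which does not depend on the scaling between libraries. The intervals of the rare strands of mir-41 overlap that of mir-42. All 7 reads of mir-42 in *glp-1(e2144)* mutants were 5p reads, so the sum and the odds ratio rest on that strand there. For miR-42-3p, with 0 reads against 14, the odds ratio against the other 3p strands had an interval of 0 to 18.5. That interval holds 1, so a smaller difference was not shown for the 3p strand.

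The hairpins next to mir-42 were lower by a similar amount. miR-43-3p had 4 reads in *glp-1(e2144)* mutants against 24 in WT worms, a log2 ratio of -3.93 (-5.92 to -2.39), and miR-43-5p had 2 reads against 15, a log2 ratio of -4.25 (-7.43 to -2.15). miR-44-5p had 32 reads in *glp-1(e2144)* mutants against 215 in WT worms, a log2 ratio of -4.09 (-4.68 to -3.55). miR-44-3p differed from these, with 254 reads in *glp-1(e2144)* mutants against 95 in WT worms and a log2 ratio of 0.07 (-0.27 to 0.43). The 3p strands of mir-44 and mir-45 are identical in sequence, so their reads cannot be assigned to a hairpin, and miR-45-3p had 296 reads in *glp-1(e2144)* mutants against 113 in WT worms, close to miR-44-3p in each library. The 5p share of the mir-44 reads was 11.2% (7.78% to 15.4%) in *glp-1(e2144)* mutants against 69.4% (63.9% to 74.4%) in WT worms. Over the strands that only this locus gives, those of mir-42 and mir-43 with miR-44-5p, there were 45 reads against 298, a log2 ratio of -4.07 (-4.56 to -3.62), whose interval lies wholly above that of mir-35 to mir-41.

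All members share their seed, and the make-up of the family gives the share of its reads that came from each. These are shares of reads as recovered, and whether every strand is recovered alike was not tested. Of the 3p reads of the family, miR-35-3p gave 33.3% (28.6% to 38.4%) in *glp-1(e2144)* mutants against 33.0% (32.4% to 33.6%) in WT worms, and 30.4% (29.8% to 31.1%) in ALG-1/OE worms against 31.8% (31.0% to 32.7%) in ctrl worms. miR-37-3p gave 18.9% (15.1% to 23.3%) in *glp-1(e2144)* mutants against 18.1% (17.6% to 18.6%) in WT worms, and 17.4% (16.9% to 18%) in ALG-1/OE worms against 18.7% (18% to 19.5%) in ctrl worms. miR-36-3p gave between 8.03% and 8.31% in the 4 libraries. A family 150-fold lower was therefore made up of these 3 strands in about the WT proportions.

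miR-39-3p and miR-40-3p, whose mature sequences are alike, took different shares. miR-39-3p gave 22.4% (18.3% to 27.0%) of the 3p reads in *glp-1(e2144)* mutants against 28.8% (28.2% to 29.4%) in WT worms, with an odds ratio against the other members of 0.714 (0.552 to 0.915). miR-40-3p gave 14.9% (11.5% to 18.9%) in *glp-1(e2144)* mutants against 9.85% (9.46% to 10.2%) in WT worms, with an odds ratio of 1.61 (1.18 to 2.15). Between ALG-1/OE and ctrl both shifts had the other direction. miR-39-3p gave 32.2% (31.6% to 32.9%) in ALG-1/OE worms against 26.8% (26.0% to 27.7%) in ctrl worms, an odds ratio of 1.30 (1.23 to 1.37), and miR-40-3p gave 10.2% (9.83% to 10.7%) against 12.5% (11.9% to 13.2%), an odds ratio of 0.796 (0.740 to 0.857).

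There were 1.5 reads (1.06 to 2.14) of miR-39-3p for each read of miR-40-3p in *glp-1(e2144)* mutants against 2.92 (2.79 to 3.07) in WT worms, and 3.15 (2.99 to 3.31) in ALG-1/OE worms against 2.14 (2.01 to 2.28) in ctrl worms. Between the control libraries, ctrl and WT, this ratio also differed beyond counting error. For comparison, there were 1.76 reads (1.31 to 2.39) of miR-35-3p for each read of miR-37-3p in *glp-1(e2144)* mutants against 1.83 (1.76 to 1.90) in WT worms, and 1.75 (1.67 to 1.82) in ALG-1/OE worms against 1.70 (1.61 to 1.79) in ctrl worms. The intervals of this second ratio overlap in each pair. Whether reads of the similar strands miR-39-3p and miR-40-3p were assigned alike in each library was not tested.

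**Figure D4:**
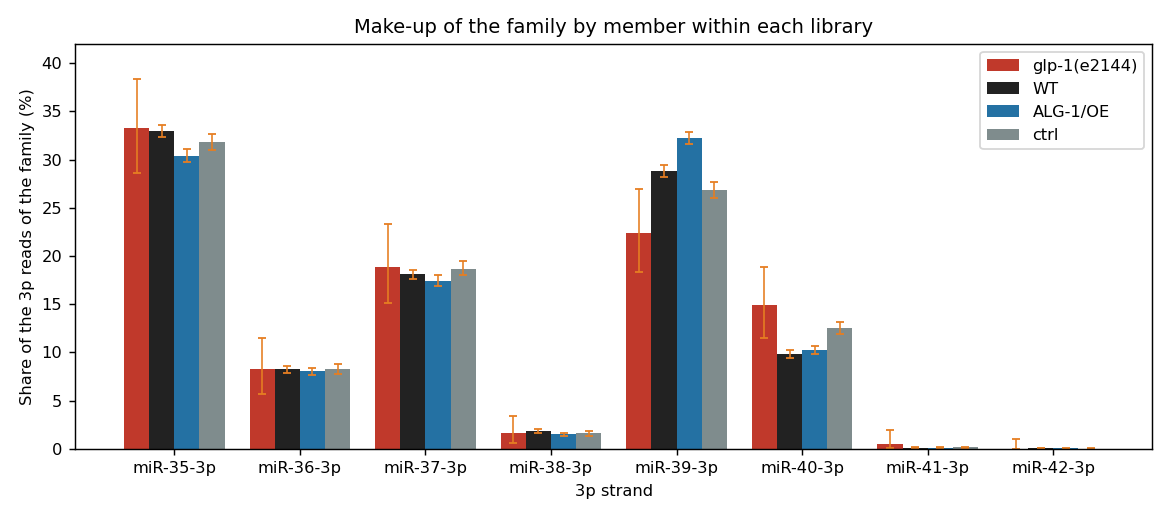
Share of each 3p strand (%) among all 3p reads of the family in each library, with bars from 0 and 95% counting intervals. miR-35-3p, miR-36-3p and miR-37-3p take nearly the same share in the 4 libraries, while miR-39-3p takes between 22.4% in *glp-1(e2144)* mutants and 32.2% in ALG-1/OE worms and miR-40-3p between 9.85% in WT worms and 14.9% in *glp-1(e2144)* mutants.

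The 3p strand supplied most reads of the family in each library, 92.4% (89.3% to 94.8%) in *glp-1(e2144)* mutants against 95.9% (95.6% to 96.1%) in WT worms, and 96.0% (95.8% to 96.3%) in ALG-1/OE worms against 96.0% (95.7% to 96.4%) in ctrl worms. Members differed widely in this. mir-35 gave 0.145% (0.0724% to 0.259%) of its WT reads as 5p strand, mir-40 0.177% (0.0481% to 0.452%) and mir-36 1.56% (1.05% to 2.22%). mir-37 gave 5.25% (4.61% to 5.95%) and mir-39 9.23% (8.57% to 9.91%). For mir-35, mir-36 and mir-37 the intervals in ALG-1/OE and ctrl overlapped those in WT, with 5p shares of 0.245% in ALG-1/OE worms against 0.286% in ctrl worms for mir-35, 1.59% against 1.41% for mir-36 and 5.51% against 5.52% for mir-37. For mir-39 the share was 7.57% (6.96% to 8.21%) in ALG-1/OE worms against 8.56% (7.61% to 9.58%) in ctrl worms, and the ALG-1/OE interval lay wholly below that of WT.

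The rarest hairpins had the largest 5p shares. For mir-41 the 5p share was 54.3% (39% to 69.1%) in ALG-1/OE worms against 31.8% (13.9% to 54.9%) in ctrl worms, and 34.3% (19.1% to 52.2%) in WT worms. For mir-42 it was above 50% in all libraries, at 100% of 7 reads (59.0% to 100%) in *glp-1(e2144)* mutants against 68.2% (52.4% to 81.4%) in WT worms, and 77.8% (60.8% to 89.9%) in ALG-1/OE worms against 92.9% (76.5% to 99.1%) in ctrl worms. The 3p strand with the family seed therefore had fewer reads than the 5p strand of mir-42. Of the hairpins with at least 100 reads in *glp-1(e2144)* mutants, mir-39 had a higher 5p share there, at 16.8% (10.1% to 25.6%) against 9.23% in WT worms, an odds ratio of 1.99 (1.10 to 3.41). Over mir-35 to mir-41 together, the odds ratio of 5p against 3p reads was 1.53 (0.962 to 2.32), within counting error of 1. Reads on a hairpin but on neither mature strand were few, 2 of 408 hairpin reads in *glp-1(e2144)* mutants against 37 of 23991 in WT worms, and 30 of 20941 in ALG-1/OE worms against 19 of 11423 in ctrl worms.

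**Figure D5:**
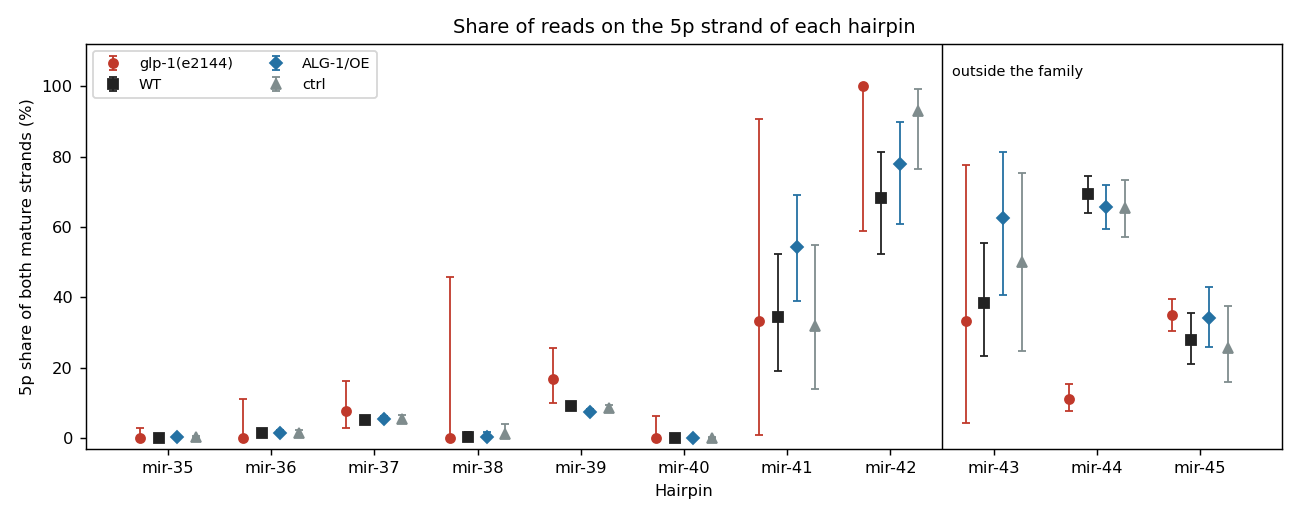
Share of the 5p strand (%) among the mature reads of each hairpin, with 95% counting intervals, for mir-35 to mir-42 and for mir-43, mir-44 and mir-45 beside them. The share is at most 16.8% for mir-35 to mir-40 in every library and above 50% for mir-42. For mir-44 it is 11.2% in *glp-1(e2144)* mutants and between 65.5% and 69.4% in the other libraries.

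The question of the second comparison was how miRNAs differ when ALG-1, an Argonaute that holds miRNA guides in worms, is overexpressed. The family took a 1.35-fold larger share in ALG-1/OE than in ctrl worms (1.32-fold to 1.38-fold), a log2 ratio of 0.43 (0.40 to 0.46). Of the 15 strands with reads in both libraries, 13 had a log2 ratio above 0, where 59.3% of all 204 miRNAs with reads in both did. Of these strands, 2 lay above the upper cut-off and 1 below the lower. Among all 204 miRNAs with reads in both libraries, 11.3% lay above the upper and 6.86% below the lower cut-off, and the 3 member strands past it were miR-41-5p, miR-42-3p and miR-38-5p, each with 25 or fewer reads and an interval that crosses the cut-off. The median log2 ratio was 0.34 over the 15 strands and 0.14 over all 204. Scaled with TMM factors or median of ratios, the family's log2 ratio was 0.26 or 0.29. The count above 0 depends on the scaling. With TMM factors miR-35-5p, miR-40-3p and miR-41-3p lay below 0, at -0.03, -0.03 and -0.13. The other strands kept their sign, and the median over all 204 was -0.03.

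Among the abundant strands, miR-39-3p was the furthest from ctrl, with a log2 ratio of 0.69 (0.63 to 0.76). The value was 0.37 (0.31 to 0.43) for miR-35-3p, 0.38 (0.26 to 0.50) for miR-36-3p and 0.33 (0.25 to 0.41) for miR-37-3p. miR-38-3p had 0.34 (0.07 to 0.62). These 4 strands overlap each other and lie below the interval of miR-39-3p. For miR-40-3p the log2 ratio was 0.14 (0.04 to 0.24), and it was -0.03 with TMM factors and -0.0018 with median of ratios, so its direction was not settled.

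The most abundant 5p strands, those of mir-39 and mir-37, had intervals that overlap those of their 3p strands. miR-39-5p had 530 reads in ALG-1/OE worms against 275 in ctrl worms, a log2 ratio of 0.50 (0.29 to 0.72), and miR-37-5p had 204 against 120, a log2 ratio of 0.32 (-0.01 to 0.66). miR-41-5p had 25 reads in ALG-1/OE worms against 7 in ctrl worms, a log2 ratio of 1.39 (0.14 to 2.85), whereas miR-41-3p had 21 against 15, a log2 ratio of 0.04 (-0.98 to 1.10). miR-42-5p had 28 reads in ALG-1/OE worms against 26 in ctrl worms, a log2 ratio of -0.34 (-1.16 to 0.49). For miR-42-3p, with 8 reads against 2, the log2 ratio of 1.56 (-0.77 to 4.83) was within counting error of 0. miR-35-5p and miR-36-5p, with 15 against 10 and 26 against 13 reads, were also within it. miR-38-5p had 1 read in ALG-1/OE worms against 2 in ctrl worms, and miR-40-5p had none in either, so for these no difference was detectable at this depth.

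The control libraries differed from each other more than ALG-1/OE differed from ctrl. The family's share was 1.74-fold lower in ctrl worms than in WT worms (1.70-fold to 1.78-fold), a log2 ratio of -0.80 (-0.83 to -0.77). These worms differ in transgene, roller marker and temperature, which cannot be told apart, and ctrl enters both this comparison and the one before it. Of the 15 strands with reads in both, 12 lay below 0, where 51% of all 198 miRNAs with reads in both lay above 0. Below the lower cut-off lay 3 strands, miR-38-3p, miR-39-5p and miR-42-3p, where 11.1% of all 198 miRNAs did and 10.6% lay above the upper. The interval of none of the 3 lay wholly below the cut-off. The log2 ratio was -0.85 (-0.91 to -0.79) for miR-35-3p, -0.90 (-0.96 to -0.84) for miR-39-3p and -0.45 (-0.55 to -0.35) for miR-40-3p. miR-40-3p was again the abundant 3p strand nearest to 0. mir-42, with 28 reads in ctrl worms against 44 in WT worms, had a log2 ratio of -0.38 (-1.12 to 0.33).

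Another miRNA family needed in worm embryos, mir-51 to mir-56, was set beside these values. Of its 12 strands, 10 had reads in both *glp-1(e2144)* and WT. Of these, 5 lay below the lower cut-off, where 27.1% of all 199 miRNAs did, and 0 above the upper, where 9.55% did. Its median log2 ratio over these 10 was -0.99. Its more abundant strands had values near 0 except miR-51-5p, with 376 reads in *glp-1(e2144)* mutants against 560 in WT worms and a log2 ratio of -1.92 (-2.11 to -1.73). miR-52-5p had -0.33, miR-53-5p -0.13, miR-54-3p 0.05, miR-55-3p -0.15 and miR-56-3p 0.12. Of its less abundant strands, miR-52-3p had 15 reads in *glp-1(e2144)* mutants against 81 in WT worms, a log2 ratio of -3.78 (-4.68 to -2.97), which is below that of miR-42-5p, and miR-51-3p had 0 reads against 16. The other strands of mir-35 to mir-42 with reads in both libraries lay further below 0 than all 10 strands of mir-51 to mir-56 with reads in both. In ALG-1/OE against ctrl, 11 of the 12 strands had reads in both libraries, and none lay past the cut-off. Of all 204 miRNAs with reads in both, 11.3% lay above the upper cut-off and 6.86% below the lower.

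The likeness of other miRNAs to the summed family was measured over the 4 libraries, as the distance between centred log2 levels with 0.5 reads added, for the 158 other mature miRNAs with at least 20 reads in all. The nearest were miR-250-3p at 0.57, miR-250-5p at 0.59, miR-51-3p at 0.70, miR-4813-5p at 1.75 and miR-61-3p at 2.37, where the median of the 158 was 6.02. miR-250-3p had 1 read in *glp-1(e2144)* mutants against 63 in WT worms, and 64 in ALG-1/OE worms against 51 in ctrl worms. miR-51-3p had 0 reads in *glp-1(e2144)* mutants against 16 in WT worms, and 17 in ALG-1/OE worms against 13 in ctrl worms. miR-61-3p had 21 reads in *glp-1(e2144)* mutants against 186 in WT worms, and 201 in ALG-1/OE worms against 80 in ctrl worms. The members themselves lay at 0.04 for miR-36-3p to 3.13 for miR-42-5p, so miR-42-5p stood further from the family sum than these 5 miRNAs. The sum is made of the members, mostly the abundant 3p strands, so small distances of those strands are built in. miR-250-5p and miR-51-3p had 0 reads in *glp-1(e2144)* mutants, so their distances rest on the 0.5 reads added.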

How the data were processed

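Small RNA libraries of 4 *C. elegans* strains, 1 per strain, were used. The authors trimmed with the Fastx-ToolKit (adapters, short reads), aligned to ce10 with Bowtie2, and deposited raw read counts for 697 rows per library, 250 hairpins and 447 mature rows; the counting tool is not given in the sources used here. For the 434 mature names, the row with the most reads was kept (10 names had several). The study scaled by all reads per sample and used the same fold cut-off. These totals were not used here, and counts were scaled to the mature miRNA reads of each library, so a change shared by all miRNAs cannot be seen. Another total would move all strands of a comparison equally and leave shares within the family as they are. The series text and the sample labels differ on whether CT20 is a control, and the labels were followed.

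Log2 ratios had no pseudocount and needed reads in both libraries. Their intervals came from the Clopper-Pearson interval of the reads, as did those of shares within a library. Differences of such shares between libraries were given as exact conditional odds ratios. For a count of 0, 3 reads served as the upper limit, and the count of the other library was taken as exact. No count model was fitted, because there are no replicates. Interval coverage was tested on simulated data that held counting error only, so the test does not bear on variation between libraries. Alternatives were scalings (without the family, edgeR TMM, DESeq2 median of ratios, hairpin reads), every mature row, hairpin rows, a pseudocount of 0.5 reads, a minimum of 10 reads and a 1.5-fold cut-off. All 16 strands of the family were described; miRNAs named outside it were mir-43 and mir-44 as neighbours, mir-51 to mir-56, 6 somatic markers, and the 5 most alike in pattern. miR-45 and miR-61-5p were added after values were seen. The members and lists were chosen with earlier results of these data known. Python 3.11.15, numpy 2.4.6, scipy 1.17.1, pandas 2.3.3, matplotlib 3.10.9, R 4.3.3, edgeR 4.0.16 and DESeq2 1.42.0 were used.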

Additional observations from a re-analysis of the deposited data

How the results depend on the processing

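In *glp-1(e2144)* against WT, 11 strands lay below the lower cut-off under each scaling, cut-off and minimum tried, and 16 with a pseudocount of 0.5 reads. Scaled without the family's own reads, the family's log2 ratio was -7.40 there, 0.47 in ALG-1/OE against ctrl and -0.88 in ctrl against WT. edgeR's TMM factors gave 0.26 in ALG-1/OE against ctrl and -0.74 in ctrl against WT, and DESeq2's median of ratios gave 0.29 and -0.84. Leaving out miR-39, which was chosen after seeing the data, gave 0.32 and -0.75. For miR-40-3p in ALG-1/OE against ctrl the sign turned, to -0.03 with TMM factors and -0.0018 with median of ratios. With at least 10 reads in the higher library, 1 strand lay past the cut-off in ALG-1/OE against ctrl in place of 3. In ctrl against WT, TMM factors left 1 in place of 3, and a 1.5-fold cut-off gave 9. Over all miRNAs in ALG-1/OE against ctrl, 37 lay past the cut-off and 62.2% of them were higher in ALG-1/OE, against 45.2% of 31 with TMM factors, 46.7% of 30 with median of ratios and 77.8% of 18 with at least 10 reads; a 1.5-fold cut-off gave 66 and the pseudocount 67. In *glp-1(e2144)* against WT there were 73, and 110 with a 1.5-fold cut-off. In ctrl against WT there were 43, with 27, 96 and 88 for the minimum of 10 reads, the 1.5-fold cut-off and the pseudocount. The median of all miRNAs moved to -0.19 without the family's reads in *glp-1(e2144)* against WT, and to -0.03 with TMM factors and 0.00 with median of ratios in ALG-1/OE against ctrl. Relative to those medians the family kept its sign. For single strands, the values of 44 of 44 strand and setting pairs stayed within the counting interval in *glp-1(e2144)* against WT, 50 of 60 in ALG-1/OE against ctrl and 56 of 60 in ctrl against WT. With hairpin reads in place of 3p reads, also chosen after seeing the data, miR-39 had 33.5% of the ALG-1/OE reads against 28.2% of the ctrl reads, and 30.4% of the WT reads. No paired analysis was possible because each strain has 1 library, and for the same reason no library could be left out. Strands with under 30 reads carry wide intervals.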

Other observations

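On chromosome V, the hairpins of miR-250 and miR-61, whose strands were among those most alike to the family in pattern, lie next to each other on the minus strand. miR-61-3p had a log2 ratio of -4.49 (-5.22 to -3.84) in *glp-1(e2144)* against WT, and miR-61-5p, with 2 reads against 17, had a log2 ratio of -4.43 (-7.59 to -2.36). miR-250-5p had 0 reads in *glp-1(e2144)* mutants against 16 in WT worms. It was 13.6-fold lower with 3 reads in place of 0 and the WT count taken as exact. In the mir-51 to mir-56 family, the less abundant strands of mir-52, mir-54, mir-55 and mir-56 were lower in *glp-1(e2144)* mutants while their more abundant strands were near WT. Beside miR-52-3p, miR-54-5p had 382 reads in *glp-1(e2144)* mutants against 503 in WT worms, a log2 ratio of -1.74 (-1.94 to -1.55), miR-55-5p had 6 against 10, a log2 ratio of -2.08 (-3.83 to -0.48), and miR-56-5p had 61 against 75, a log2 ratio of -1.64 (-2.16 to -1.14). These values were picked out after they were seen.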
